A study of Mus musculus with 24 samples.

Results

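The 45 promoters described here gained detectable trimethylation of histone H3 at lysine 27 (H3K27me3) while cultured mouse cerebellar granule neurons (CGNs) matured. They were chosen by their measured peaks. A protein-coding gene was taken if the window of 3 kb on each side of its annotated 5′ end held an H3K27me3 peak in all 3 libraries at 7 days in vitro (DIV7) and in none of the 3 libraries at DIV1. This rule took 45 of 21938 promoters. The number depended on single libraries, with 90 promoters without DIV7 replicate 1, 85 without DIV7 replicate 2 and 75 without DIV1 replicate 2, and it was 106 when each library was limited to its strongest peaks up to an equal summed length. They lay in 42 separate stretches on 18 chromosomes, 9 of them on chromosome 3, because Syngr2 shared its 5′ end with Gm20708, the 5′ ends of Cfap43 and Itprip were 12 bp apart, and those of Palmd and 4930455H04Rik were 720 bp apart. The DIV1 and DIV7 values of these promoters therefore follow from the choice and were not tested. The lowest overlap in a DIV7 library was 50 bp for Gm7697 and 51 bp for Pros1 among the chosen promoters. Just outside, 42 promoters had a peak in all 3 DIV7 libraries and in 1 DIV1 library, and 93 had a peak in 2 DIV7 and no DIV1 libraries.

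H3K27me3 is written by the Polycomb repressive complex through the methyltransferase EZH2 or its relative EZH1, and it is removed by the KDM6 demethylases. It marks promoters of genes that are kept silent, often genes of other lineages or other developmental stages. Granule neurons are born from progenitors in the postnatal cerebellum, leave the cell cycle and mature over days in culture.

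The data were H3K27me3 peak lists from CUT&RUN, an assay that cuts out chromatin bound by an antibody to the mark and sequences it, for 24 libraries in 8 groups of 3. Granule neuron progenitors were isolated on a Percoll gradient from cerebella of CD1-IGS mouse pups around the end of the first postnatal week, each replicate being a pool from litters, and cytosine arabinoside (AraC), which blocks cell division, was added at 1 µM on DIV2. Untreated cultures were harvested at DIV1, DIV3, DIV5 and DIV7. Other cultures received 5 µM GSK-126, an EZH2 inhibitor, or DMSO, and others 1 µM GSK-J4, a KDM6 inhibitor, or DMSO, all added on DIV1 and harvested on DIV5. The DIV1 cultures were harvested before AraC was added, so maturation and AraC cannot be told apart. In these bulk cultures, fewer cells with the mark and less mark per cell cannot be told apart either.

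The libraries differed in how much was called. The DIV1 libraries had peaks at 1692 to 3605 promoters and the DIV7 libraries at 1464 to 2117. DIV1 replicate 1 was the shortest DIV1 list, with 5522 peaks, and the DIV7 lists held 5178, 5891 and 9852 peaks. At DIV3 the lists held 4740, 12245 and 22832 peaks. The GSK-126 lists covered 1.07 to 2.00 Mb of the genome, against 3.29 to 4.23 Mb for their DMSO lists, but GSK-126 replicate 3 had a peak at 3285 promoters, more than any of the 3 DMSO libraries (2805 to 3179). Of 10 genes that granule neurons express, Neurod1, Zic1 and Rbfox3 among them, 0 had a promoter peak in all 3 DIV7 libraries, against 3.77% of all promoters. A peak in at least 1 of the 24 libraries was found at 6 of these 10. Of 23 glial, microglial, endothelial, Purkinje and interneuron genes, 2 had a peak in all 3 DIV7 libraries, 8 in at least 1 library and 15 in none. Most genes of other cells thus lacked the mark too, so the 2 lists cannot check the cell type, and the 10 genes alone are too few.

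For a subset of the promoters the marked stretch itself can be shown. In 19 of the 45, the peaks of all 3 DIV7 libraries shared at least 1 stretch, 14 to 445 bp long. In the other 26 the window held a peak in each library, but no base was covered in all 3. The centre of the shared stretch lay downstream of the 5′ end in 18 of 19, and in 10 it fell in an intron, in 7 in an untranslated part of an exon, in 1 in a coding exon and in 1 upstream of the gene. The sequences below are from the reference genome (GRCm38, the mm10 build), 5′ to 3′ on the gene's strand, with each CG, the dinucleotide whose density marks Polycomb target promoters in mammals, in capitals. They are limited to the longest run outside annotated untranslated regions, and the place given is that of their centre. Bok, Rin2 and Elavl2 are shown because the rule names them, B3gnt5, Klhl1, Gldc and Kirrel for their high or strongly inhibitor-sensitive coverage, and Gm7697 because its window alone held a peak in every GSK-126 library. The Gm7697 stretch itself met a peak in 2 GSK-126 and 2 DMSO libraries of that experiment. It was centred 2780 bp into the gene, whereas the other 18 stretches were centred within 1 kb of the 5′ end.
Bok, coding exon, chr1:93686447-93686689, plus strand: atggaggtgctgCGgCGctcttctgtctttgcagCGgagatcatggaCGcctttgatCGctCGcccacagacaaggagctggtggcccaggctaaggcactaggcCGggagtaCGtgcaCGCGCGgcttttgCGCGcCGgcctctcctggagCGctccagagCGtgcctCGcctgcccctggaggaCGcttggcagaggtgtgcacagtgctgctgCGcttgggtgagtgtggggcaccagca
Rin2, intron, chr2:145675708-145675894, plus strand: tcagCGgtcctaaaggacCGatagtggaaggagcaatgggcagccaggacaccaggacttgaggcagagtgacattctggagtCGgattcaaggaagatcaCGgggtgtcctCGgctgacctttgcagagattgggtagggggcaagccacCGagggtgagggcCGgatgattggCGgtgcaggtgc
Elavl2, intron, chr4:91399985-91400106, minus strand: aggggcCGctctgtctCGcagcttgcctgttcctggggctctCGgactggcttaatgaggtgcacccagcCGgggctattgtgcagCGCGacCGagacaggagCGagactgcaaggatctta
B3gnt5, intron, chr16:19760828-19761053, plus strand: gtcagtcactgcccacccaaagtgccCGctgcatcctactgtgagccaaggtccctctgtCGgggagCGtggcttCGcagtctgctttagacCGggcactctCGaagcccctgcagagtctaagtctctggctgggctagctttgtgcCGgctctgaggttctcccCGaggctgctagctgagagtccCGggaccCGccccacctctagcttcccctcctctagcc
Klhl1, coding exon, chr14:96518230-96518317, minus strand: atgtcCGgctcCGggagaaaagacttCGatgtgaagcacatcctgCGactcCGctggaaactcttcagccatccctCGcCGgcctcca
Gldc, upstream of the gene, chr19:30175430-30175533, minus strand: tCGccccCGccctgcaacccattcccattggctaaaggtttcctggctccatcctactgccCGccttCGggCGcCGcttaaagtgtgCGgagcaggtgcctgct
Kirrel, intron, chr3:87174087-87174252, minus strand: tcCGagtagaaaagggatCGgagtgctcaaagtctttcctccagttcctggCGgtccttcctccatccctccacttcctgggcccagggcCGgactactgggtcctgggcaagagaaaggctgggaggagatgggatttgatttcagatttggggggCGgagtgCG
Gm7697, intron, chr8:69520171-69520220, minus strand: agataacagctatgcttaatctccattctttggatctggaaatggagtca

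The Bok stretch held 19 CG in 243 bases and the B3gnt5 stretch 10 in 226, whereas the Gm7697 stretch held 0 in 50. GC content was 65.8% in the Bok stretch and 38.0% in the Gm7697 stretch. The shared stretches of Itgb8 (174 bp, centred 506 bp into the gene) and Pde5a (50 bp, centred 812 bp into the gene) lay in untranslated exons. Sequence at the 5′ end itself, from 250 bases before to 50 after it, resembled that of other promoters. Median GC content was 58.3% in the 45, 60.0% in the 554 promoters with a peak in all DIV1 and all DIV7 libraries, and 55.0% in all promoters. A GC content of at least 50% with a ratio of observed to expected CG of at least 0.6 was found in 20 of 45 (44.4%), in 45.1% of the 554 and in 41.3% of all. CAGCAGG, the core of the motif bound by the granule neuron ZIC factors, stood on either strand in 3 of 45 (6.67%), against 10.1% of all promoters. CAGATG, an E-box, stood in 7 of 45 (15.6%), against 15.2% of all.

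DIV7 peaks in the 45 windows were narrow and of modest strength. The 177 peaks had a median length of 218 bp, a median fold enrichment over local background of 4.04 and a median −log10 q of 1.43. Peaks lying in the windows of more than 1 gene were counted once for each gene. In the 554 windows marked at both DIV1 and DIV7, the 2561 peaks had medians of 259 bp, 3.61 and 1.49. The strongest peak reached a −log10 q of 2.42 in the 45 windows and 12.9 in the 554. The centres lay a median of 397 bp into the gene, and 142 of 177 (80.2%) were downstream of the 5′ end. The share within 1 kb of the 5′ end was 89.3%, compared with 71.4% in the 554. The nearest DIV1 peak lay a median of 62.5 kb outside the window, within 10 kb for 5 promoters (3036 bp at the nearest, for Syngr2 and Gm20708), and 1708 kb away for Elavl2.

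**Figure D1:**
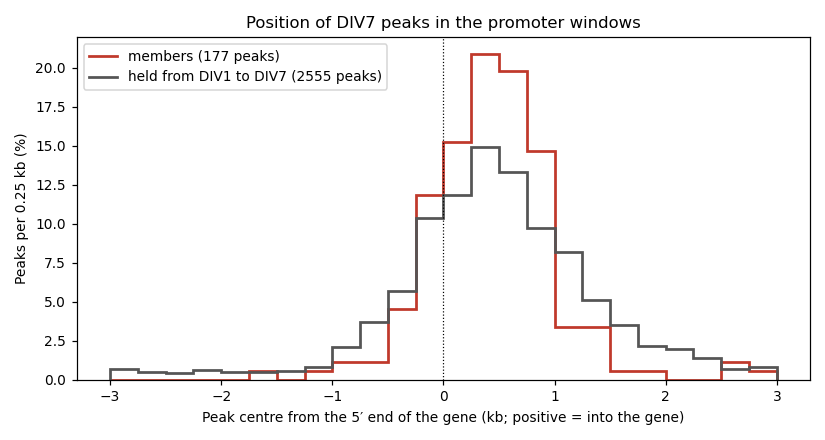
Position of DIV7 peak centres relative to the gene's 5′ end (x axis, kb, positive into the gene) as the percentage of peaks in each 0.25 kb bin, for the 45 promoters (red, 177 peaks) and for the 554 promoters with peaks at both DIV1 and DIV7 (grey, 2555 peaks centred in the window). Both distributions are highest just inside the gene, and 89.3% of the red peaks lie within 1 kb of the 5′ end. Peaks lying in the windows of more than 1 gene are counted once for each gene.

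Every DIV5 library had a peak at more of the 45 promoters than any DIV3 library. The members with a peak numbered 11, 25 and 31 in the DIV3 libraries and 39, 32 and 39 in the DIV5 libraries, between the chosen 0 at DIV1 and 45 at DIV7. By the earliest day from which most libraries had a peak, 23 members were marked from DIV3 on, 15 from DIV5 on and 5 only at DIV7 within the untreated time course. Mxra7, a matrix-remodelling associated protein, and Fkbp9, a prolyl isomerase of the endoplasmic reticulum, had a peak in 2 libraries at DIV3 and in 1 at DIV5. The DIV3 figure leaned on the 2 libraries with the longer lists. A peak in at least 2 DIV3 libraries was present at 25 members, in all 3 at 8, and in the remaining 2 at 11 without DIV3 replicate 2 and at 8 without DIV3 replicate 3. At DIV5, 38 members had a peak in at least 2 libraries and 30 in all 3. At equal summed length, 4 members had a peak in at least 2 DIV3 libraries and 22 in at least 2 DIV5 libraries. Mean coverage was higher at DIV5 than at DIV7 in 27 of the 45 and lower in 18. The DIV7 values follow from the choice, so this count is a description. Every DIV7 list covered less of the genome (1.19 to 2.25 Mb) than any DIV5 list (2.37 Mb or more). The median of the means was 5.83% at DIV5 and 5.68% at DIV7 in the 45. In the 554 promoters marked at both DIV1 and DIV7 it was 15.1% and 8.11%. Lower coverage at DIV7 was thus not particular to the 45, and the part of list length was not tested. Among the 554 promoters marked at both ends, 501 had a peak in all 3 DIV3 libraries and 530 in all 3 DIV5 libraries.

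**Figure D2:**
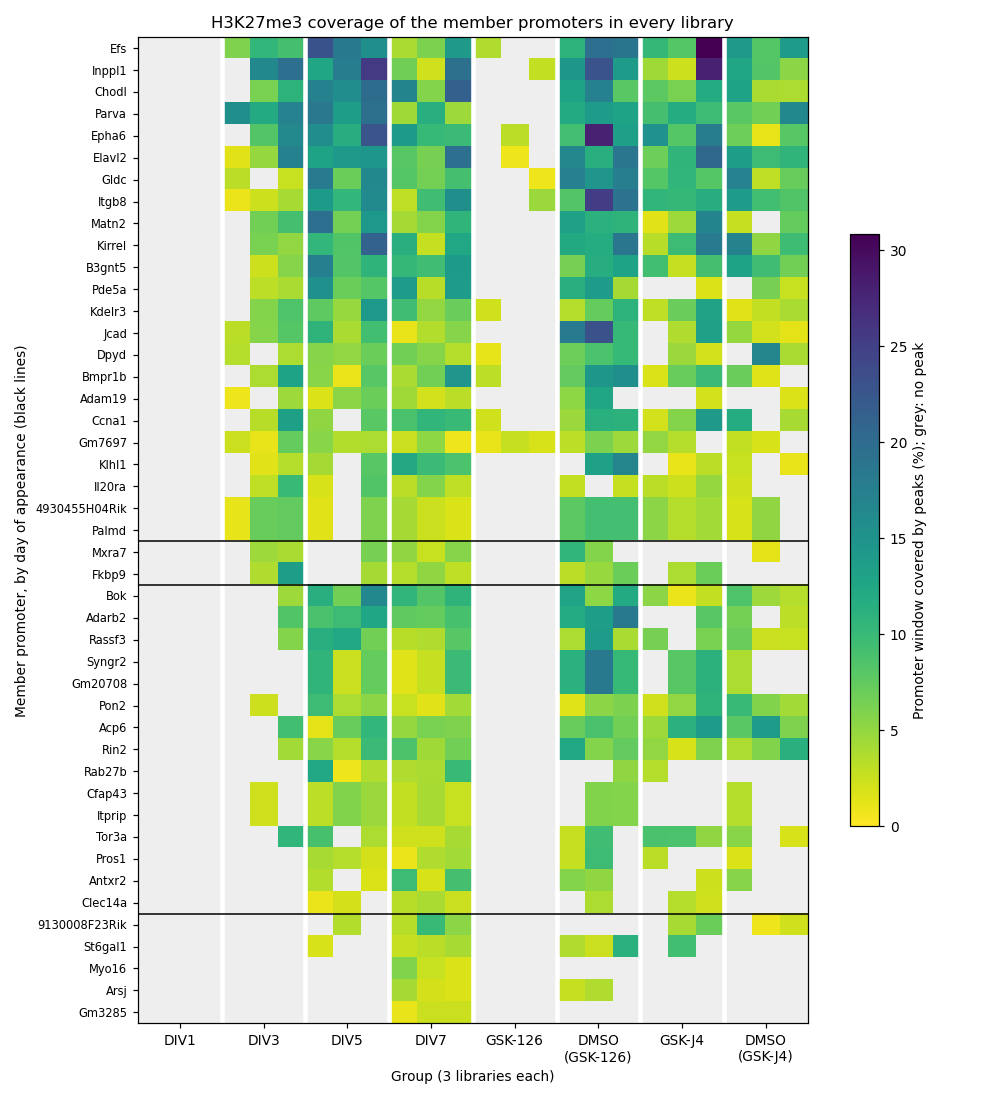
Percentage of the 6 kb promoter window covered by peaks (colour; grey, no peak) for the 45 promoters (rows, grouped by day of appearance with black lines) in the 24 libraries (columns, 3 for each group). The DIV1 columns are empty and the DIV7 columns full by choice, and the GSK-126 columns are nearly empty, with 6, 3 and 4 promoters holding a peak.

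Efs, Parva, Inppl1 and Chodl were among the promoters marked from DIV3 on. Efs, an adaptor of the Cas family that acts downstream of integrins, had 6.0, 10.4 and 9.13% of its window covered at DIV3, 23, 18.3 and 15.5% at DIV5, and 3.87, 6.13 and 14.2% at DIV7. Parva, which links integrins to actin, had 15.4, 12 and 17.1% at DIV3, 18.5, 13.6 and 19.5% at DIV5, and 4.45, 11.5 and 4.53% at DIV7. Both were covered in every untreated library from DIV3 on and had their highest mean at DIV5. The DIV5 lists covered more of the genome than the DIV7 lists, as given above. Inppl1, an inositol lipid phosphatase, had 0, 16.5 and 19.6% at DIV3, 12.5, 17.9 and 25.6% at DIV5, and 6.68, 2.27 and 19.5% at DIV7. Chodl, a membrane lectin, had 0, 6.17 and 10.9% at DIV3, 17.3, 15.7 and 19.9% at DIV5, and 16.9, 5.67 and 21.4% at DIV7. In both genes DIV3 replicate 1, the shortest of the 3 DIV3 lists, lacked a peak. Chodl had the highest mean DIV7 coverage of the 45, 14.7% ± 8.11 (SD, n = 3).

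Elavl2, Itgb8 and Pde5a also belonged to the early class. Elavl2, which encodes a neuronal RNA-binding protein of the Hu family, had 1.35, 4.83 and 17.2% at DIV3, 12.9, 14.3 and 14.6% at DIV5, and 7.98, 6.32 and 19.6% at DIV7. Itgb8, the beta chain of an integrin that activates latent TGF-beta, had 0.933, 2.40 and 4.07% at DIV3, 14.0, 10.4 and 16.1% at DIV5, and 2.95, 9.45 and 15.5% at DIV7. Every DIV5 library of Itgb8 lay above every DIV3 library, whereas for Elavl2 the DIV3 values spanned the DIV5 values. Pde5a, a phosphodiesterase that breaks down cyclic GMP, had 0, 3.08 and 3.95% at DIV3, 15.3, 6.97 and 8.07% at DIV5, and 13.8, 3.37 and 13.9% at DIV7. Its DIV3 and DIV5 libraries did not overlap.

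A later group was led by Bok, a pro-apoptotic member of the BCL2 family, with 0, 0 and 4.52% at DIV3, 11.5, 6.57 and 16.4% at DIV5, and 10.5, 8.20 and 10.8% at DIV7. Rin2, an activator of the endosomal GTPase RAB5, had 0, 0 and 4.33% at DIV3, 5.43, 3.48 and 9.80% at DIV5, and 8.55, 4.38 and 6.58% at DIV7. Adarb2, an RNA-binding relative of the RNA-editing deaminases, had 0, 0 and 8.35% at DIV3, 8.80, 9.73 and 12.6% at DIV5, and 7.57, 7.28 and 8.92% at DIV7. In all 3 genes the only DIV3 library with a peak was replicate 3, the longest list. Rassf3, a Ras-association domain protein, had 0, 0 and 5.77% at DIV3, 11.5, 12.3 and 6.58% at DIV5, and 3.37, 3.65 and 8.05% at DIV7. Syngr2, a vesicle membrane protein, and Gm20708 on the same window had no DIV3 peak, 10.6, 2.42 and 7.33% at DIV5, and 1.55, 2.73 and 9.87% at DIV7.

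In the untreated time course, 5 promoters had a peak in most libraries only at DIV7. Myo16, an unconventional myosin of neurons, had 5.87, 2.63 and 1.8% at DIV7, and Gm3285 had 1.07, 2.52 and 2.48%. These 2 genes had no peak in any other library of the series. Arsj, an arylsulfatase, had 4.12, 1.98 and 1.65% at DIV7 and no peak in the untreated DIV3 or DIV5 libraries, but 2.72 and 3.62% in 2 of the DMSO libraries of the GSK-126 experiment, which were also harvested at DIV5. St6gal1, a sialyltransferase, had 2.65, 3.18 and 3.98% at DIV7 and 1.88% in 1 untreated DIV5 library, but 3.65, 2.45 and 11.1% in the 3 DMSO libraries of that experiment. 9130008F23Rik had 3.33, 9.93 and 5.40% at DIV7 and 3.58% in 1 untreated DIV5 library, and 0.833 and 2.23% in 2 DMSO libraries of the GSK-J4 experiment. Absence before DIV7 thus held in all DMSO cultures for Myo16 and Gm3285 but not for the other 3.

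**Figure D3:**
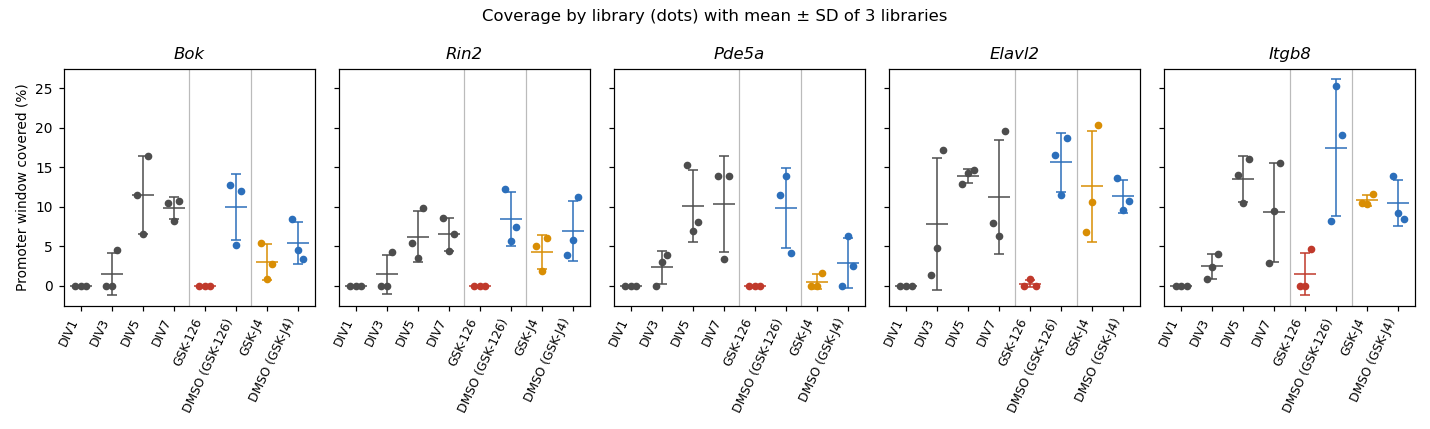
Percentage of the promoter window covered (y axis) for the 5 genes that the rule names, in every library (dots) with mean ± SD of 3 libraries, by group along the x axis. DIV1 is at 0 by choice, GSK-126 is at 0 in every library of Bok, Rin2 and Pde5a, and Itgb8 reaches 4.63% in 1 GSK-126 library.

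Coverage at DIV5 was compared with that at DIV3, the only step of the time course that the choice did not use. Of 2731 promoters tested with limma (robust empirical Bayes, Benjamini-Hochberg adjustment over all promoters), 0 (0%) passed an adjusted p of 0.05, and none of the 38 members tested did. At an unadjusted p under 0.05, 12 of these 38 were higher at DIV5 and 0 lower, among 26 higher and 32 lower over all 2731. A promoter needed coverage in 3 of the 6 libraries to be tested, and 30 members had a peak in all 3 DIV5 libraries but only 8 in all 3 DIV3 libraries, so many met this filter through the DIV5 libraries, which favours higher values there. The counts of members tested are therefore no support for a difference. Over all 45, the mean was higher at DIV5 in 35, lower in 7 and 0 in both groups in 3. Itgb8 differed by 11.1 points (95% interval 4.83 to 17.3) and Bok by 9.99 points (2.19 to 17.8), each with an adjusted p of 0.999 by limma. Simulated data for this comparison had every promoter's mean raised by 20 points and normally distributed noise. A change of 10 points put into 200 of 2731 promoters was called in 0% of them and a change of 20 points in 74.0%. Real coverage held many zeros, so these shares do not give the smallest difference detectable here.

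With GSK-126, few of these promoters had a peak. The compound was added on DIV1, when by the rule no untreated library had a peak at any of them. Peaks were present at 6, 3 and 4 of the 45 in the GSK-126 libraries, against 37, 40 and 35 in the DMSO libraries. Summed over the 45, coverage was 13.3, 6.68 and 10.2 percentage points with GSK-126, against 314.5, 462.9 and 378.2 with DMSO. The mean was lower with GSK-126 at 42 promoters and higher at 0, and Myo16, Gm3285 and 9130008F23Rik were at 0 in all 6 libraries. No GSK-126 library had a peak at 34 of the 45, and 10 had a peak in 1 library. The remaining promoter, Gm7697, a predicted gene, had 1.05, 2.65 and 1.87% with GSK-126 and 3.05, 6.07 and 4.55% with DMSO, and it lay below DMSO in every library.

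Over all 45, 75.6% had no peak in any GSK-126 library, against 5.78% of the 554 promoters marked at both DIV1 and DIV7. The 45 were less often covered with DMSO too, so the shares are also given for promoters with a peak in all 3 DMSO libraries. This condition kept 66.7% of the 45 and 95.8% of the 554, so it selected for high DMSO values more strongly among the 45, and the shares are descriptions. Of 30 such members, 19 (63.3%) had no peak in any GSK-126 library. The share was 20.6% of all 1893 such promoters and 4.52% of the 531 that were also marked at both DIV1 and DIV7. Among the 30, Syngr2 and Gm20708 had the same values, as did Palmd and 4930455H04Rik, and each gene was counted. Summed coverage with GSK-126 was 2.98% of that with DMSO in the 30 members, 47.7% in the 531 and 39.4% in the 1893. All 30 members had every GSK-126 library below every DMSO library, a pattern found in 58.0% of the 1893 and 56.9% of the 531. Leaving out any 1 GSK-126 library kept the ordering of the shares without a peak, at 70.0 to 80.0% of the 30, 24.1 to 33.0% of the 1893 and 5.65 to 11.9% of the 531. The strength of the DMSO peaks, taken as each promoter's mean of the strongest −log10 q, had a median of 1.71 in the 30 (1.25 to 2.26), 1.65 in the 1893 and 1.81 in the 531, where it reached 17.2. Median DMSO coverage was 11% in the 30, 10.2% in the 1893 and 16.1% in the 531. By choice, the untreated DIV1 libraries had no peak at the 45 and a peak at all of the 554. GSK-126 was added on that day, so the shares set promoters without a DIV1 peak against promoters with one. The part of this, of peak strength and of the shorter GSK-126 lists in the difference was not tested.

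**Figure D4:**
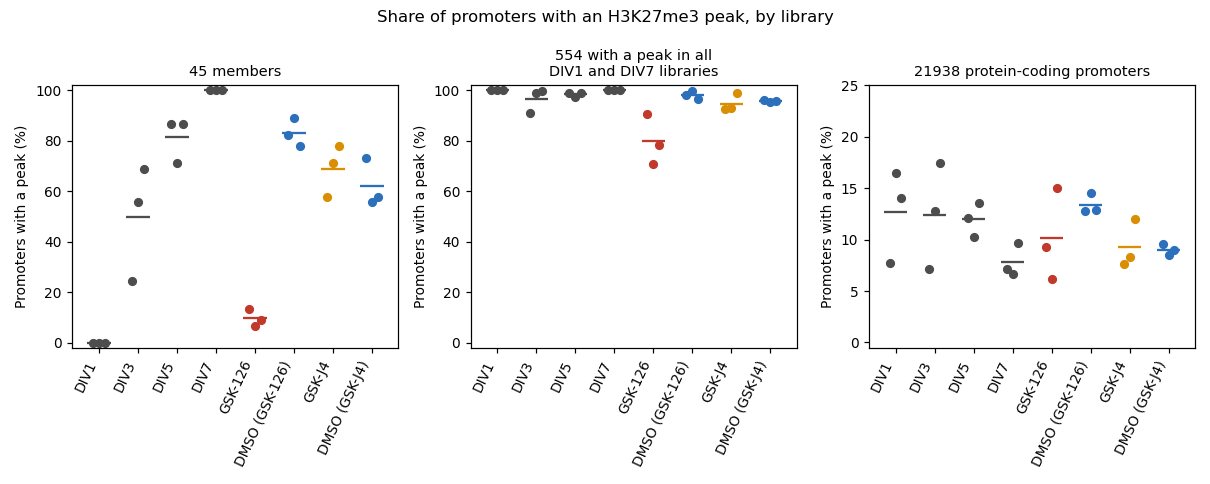
Percentage of promoters with a peak (y axis) in each library (dots; bars, mean of 3) for the 45 promoters, the 554 promoters with a peak in all DIV1 and DIV7 libraries, and all 21938 promoters, the last on its own scale. In the GSK-126 libraries 6.67 to 13.3% of the 45 had a peak, against 70.9 to 90.8% of the 554.

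In the fit over all promoters, 636 of 2385 (26.7%) were called lower with GSK-126 and 5 higher (limma, adjusted p under 0.05). Of 30 members that could be tested, 24 were called lower and 0 higher. Syngr2 and Gm20708 had the same values, as did Palmd and 4930455H04Rik, and each gene was counted. A promoter needed coverage in 3 of the 6 libraries to be tested, which all 30 met through the DMSO libraries and only Gm7697 also through the GSK-126 libraries. Such promoters had to lie lower with GSK-126. Their count, their median difference and the adjusted p of single members given below are therefore descriptions, and no support beyond the coverage values. The median difference was −10.9 points over the 30 members, −4.77 over all 2385 and −8.03 over the 544 tested of the 554. Of these 544, 214 (39.3%) were called lower. With promoters covered in at least 1 library admitted, 42 members were tested and 20 called lower. The share was 7.38% of all 6330 promoters, which include those covered in a single library, and 24.5% of the 554 (136 called). With every library limited to its strongest peaks up to an equal summed length, a relative measure, 41 of 939 (4.37%) were called lower and 3 of 7 members, Chodl, Palmd and 4930455H04Rik. The number of members called fell to 9, 5 and 4 without DMSO replicate 1, 2 and 3, when 11 could be tested, and was 14 when either replicate 2 or replicate 3 of GSK-126 was left out.

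**Figure D5:**
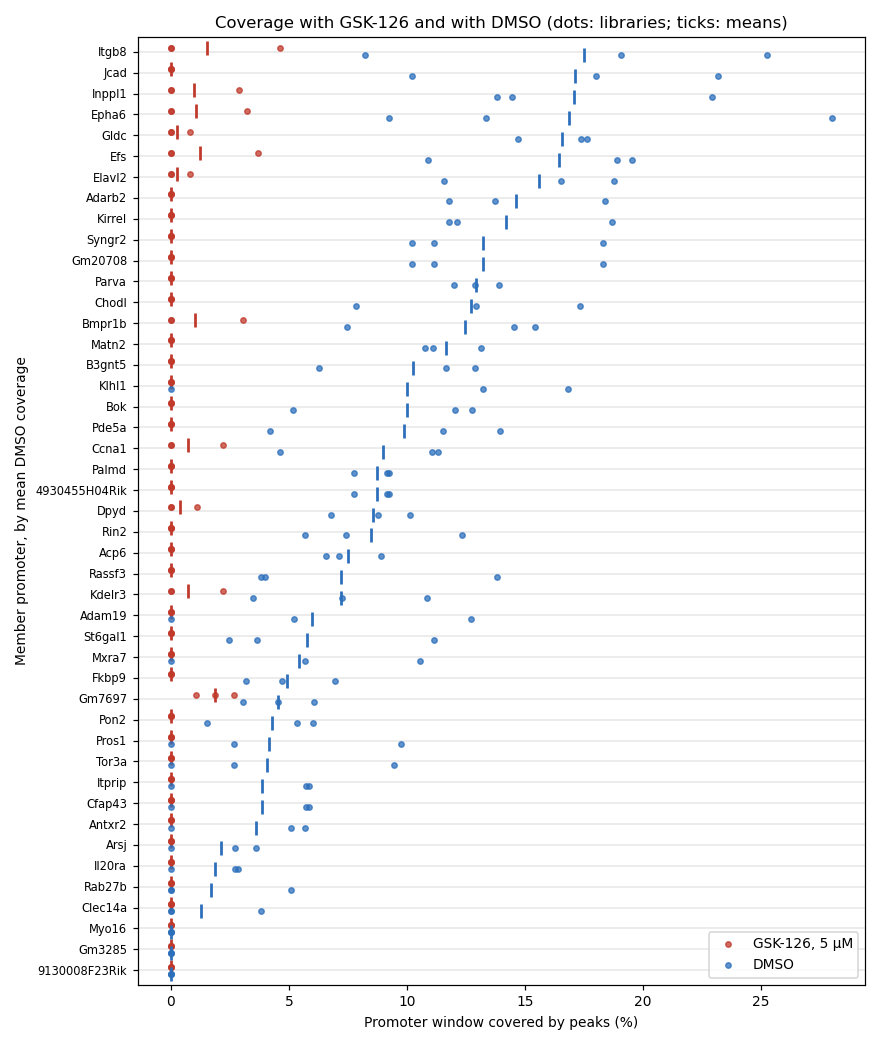
Percentage of the promoter window covered (x axis) in the GSK-126 libraries (red dots) and the DMSO libraries (blue dots) for the 45 promoters (rows, by mean DMSO coverage; ticks mark means). The red values lie at 0 in every library of 34 promoters and reach 4.63% at most, in Itgb8.

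By known function, 11 of the 45 were placed with adhesion and matrix genes, a grouping made after the members were known and not set against other genes. Of these 11, 9 had no GSK-126 peak, against 34 of all 45, and 7 had every GSK-126 library below every DMSO library, against 30 of all 45. Matn2, the extracellular matrix protein matrilin, had 0% in all 3 GSK-126 libraries, against 13.2, 11.1 and 10.8% with DMSO (adjusted p = 0.00404, limma). Parva had 0% in all 3, against 12, 13.9 and 12.9% with DMSO (adjusted p = 0.00333, limma). The groups of both genes were far apart and the DMSO libraries close together. Kirrel, an immunoglobulin-type adhesion protein, had 0% in all 3 GSK-126 libraries, against 12.1, 11.8 and 18.7% with DMSO (adjusted p = 0.00646, limma). Itgb8 had 0, 0 and 4.63% with GSK-126, against 8.22, 25.3 and 19.1% with DMSO, a difference of −16.0 points (95% interval −26.0 to −5.92, adjusted p = 0.0339, limma). Its groups did not overlap, but the DMSO values were spread widely and the adjusted p was 0.552 at equal summed length (0.0107 to 0.552 over its alternatives). Efs had 3.67, 0 and 0% with GSK-126, against 10.9, 19.6 and 18.9% with DMSO, and Chodl had 0% in all 3, against 12.9, 17.3 and 7.83%.

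Of the 45, 4 were placed with receptors and ligands and 6 with intracellular signalling. Epha6, a receptor for ephrins, had 0, 3.22 and 0% with GSK-126, against 9.23, 28.0 and 13.4% with DMSO. Pde5a had 0% in all 3 GSK-126 libraries, against 11.5, 13.9 and 4.20% with DMSO (adjusted p = 0.0348, limma). Rin2 had 0% in all 3, against 12.3, 5.68 and 7.42% (adjusted p = 0.0254, limma). The lowest DMSO library of Pde5a and that of Rin2 lay nearer to 0 than the lowest of any adhesion gene named above, though their other libraries overlapped with those genes. The largest adjusted p (limma) over the alternatives was 0.205 for Pde5a and 0.0796 for Rin2. Inppl1 had 0, 0 and 2.88% with GSK-126, against 14.5, 22.9 and 13.8% with DMSO. Klhl1, an actin-binding kelch protein of neurons, had 0% in all 3 GSK-126 libraries and 0, 13.2 and 16.8% with DMSO, so its groups met at 0, and it was covered in too few libraries to be tested.

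Of the 2 genes of cell death and the cell cycle, Bok had 0% in all 3 GSK-126 libraries, against 12.8, 5.18 and 12% with DMSO, a difference of −9.99 points (95% interval −15.5 to −4.49, adjusted p = 0.0215, limma). Ccna1, a cyclin best known from the male germ line, had 2.18, 0 and 0% with GSK-126, against 4.60, 11.3 and 11.1% with DMSO (adjusted p = 0.0364, limma). Neither gene's groups overlapped. Of the 2 RNA-binding genes, Elavl2 had 0, 0.817 and 0% with GSK-126, against 16.5, 11.6 and 18.8% with DMSO (−15.3 points, 95% interval −20.5 to −10.2, adjusted p = 0.00478, limma). Adarb2 had 0% in all 3, against 11.8, 13.7 and 18.4% (adjusted p = 0.00478, limma). The groups of both lay well apart. Over the alternatives, the largest adjusted p (limma) was 0.342 for Elavl2, 0.124 for Ccna1, 0.0696 for Bok and 0.0233 for Adarb2.

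Gldc, the glycine decarboxylase of the glycine cleavage system, had the smallest adjusted p of the members tested, all of which met the coverage filter through DMSO. Its coverage was 0, 0 and 0.800% with GSK-126, against 17.4, 14.7 and 17.6% with DMSO (−16.3 points, 95% interval −20.1 to −12.5, adjusted p = 0.00238, limma). B3gnt5, a glycosyltransferase of glycolipid synthesis, had 0% in all 3 GSK-126 libraries, against 6.28, 11.7 and 12.9% with DMSO. Palmd, a palmitoylated protein of the paralemmin family, and 4930455H04Rik shared their windows and had 0% in all 3, against 7.75, 9.25 and 9.15% (adjusted p = 0.00735, limma). The DMSO libraries lay close together there, with an SD of 0.839 points. Where the stretch shared by the DIV7 libraries could be followed, 14 of 19 met no peak in any GSK-126 library and 9 of 19 met a peak in all 3 DMSO libraries.

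GSK-J4 was compared with its own DMSO cultures in the same way. Members with a peak numbered 26, 32 and 35 in the GSK-J4 libraries, against 33, 25 and 26 with DMSO. Of 2034 promoters tested, 0 (0%) were called by limma, and 0 of 32 members. At an unadjusted p under 0.05, 22 promoters were higher and 9 lower, and among the members 1 was higher, Epha6, and 0 lower. Epha6 had 15.2, 8.10 and 17.8% with GSK-J4, against 6.80, 1.07 and 7.97% with DMSO, a difference of 8.42 points (95% interval 0.76 to 16.1, adjusted p = 0.999, limma). Its groups did not overlap. Over all 45, the mean was higher with GSK-J4 at 28, lower at 14 and 0 in both groups at 3. In the 32 tested it was higher at 22 and lower at 10, with a median difference of 1.48 points, against 0.46 over all 2034, and without GSK-J4 replicate 3, the longest GSK-J4 list, it was higher at 12 of 28 with a median of −0.54. The median half-width of the members' 95% intervals was 7.16 points, unadjusted for the number of promoters tested. Larger differences could therefore also go uncalled, as at Epha6. In a joint limma fit of both compounds, added after the data were seen, the effect of GSK-126 was called lower than that of GSK-J4 at 4 of 41 members and at 108 of 3026 promoters (3.57%). The 4 members are 2 pairs with the same values, Syngr2 with Gm20708 and Palmd with 4930455H04Rik, and so count as 2 windows. The joint fit reused the GSK-126 values above. Both windows also had less coverage in the DMSO libraries of the GSK-J4 experiment than in those of the GSK-126 experiment. These calls are therefore descriptions.

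The 5 genes that the rule names had a peak in at least 1 library of both groups of the GSK-J4 experiment. Elavl2 had 6.78, 10.6 and 20.4% with GSK-J4, against 13.6, 9.65 and 10.7% with DMSO. Itgb8 had 10.5, 10.3 and 11.6%, against 13.8, 9.28 and 8.42% with DMSO. Bok had 5.37, 0.850 and 2.78%, against 8.48, 4.52 and 3.38% with DMSO. The groups of these 3 genes overlapped. Rin2 had 5.02, 1.85 and 6.02% with GSK-J4, against 3.85, 5.83 and 11.2% with DMSO, and Pde5a had 0, 0 and 1.62%, against 0, 6.30 and 2.53%. Ranked by mean coverage over the 45, untreated DIV5 cultures and the DMSO cultures of the GSK-126 experiment gave a Spearman rho of 0.811, and DIV5 and the DMSO cultures of the GSK-J4 experiment 0.838. These are descriptions over promoters of the same build and method, not over independent samples.

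Members made up 0.205% of all promoters, so the counts of relatives of the named genes are given only as a description. Among 18 genes of the BCL2 family, Bok was the only member, 8 had no promoter peak in any library, and Bik, which promotes apoptosis through its BH3 domain, had a peak in all 24. Of the 4 RIN genes, Rin2 had a peak in 16 libraries and Rin3 in 6, none of them of the untreated time course, and the other 2 in none. Of the 4 ELAVL genes, Elavl2 had a peak in 19 libraries, Elavl3 in 1, and Elavl1 and Elavl4 in none. Among 21 cyclic nucleotide phosphodiesterases, Pde5a was the only member, and Pde8b had a peak in 23 libraries, all 3 DIV1 libraries included. Among 8 integrin beta chains, Itgb8 was the only member, and Itgb4 had a peak in 19 libraries, likewise from DIV1 on. None of 18 integrin alpha chains was a member, although 3 had a peak in all DIV7 libraries.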

How the data were processed

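Per the labels and methods, the authors trimmed reads with Trimmomatic 0.38, aligned them to mm10 with STAR 2.7.2b and called broad peaks per library with MACS2 2.1 at a false discovery rate of 0.1. The control of the calls is not given in the sources used here. The deposited lists give each peak's fold enrichment, a ratio over local background, and its −log10 p-value and −log10 q-value. They hold no read counts, so depth is unknown, no peak means below the caller's threshold, and the authors' DESeq2 1.36.0 test on counts could not be run. Coverage, the percentage of a 6 kb promoter window (GENCODE, 21938 protein-coding genes) under peaks, was tested for promoters covered in at least 3 libraries of a comparison with limma 3.58.1 in R 4.3.3 (robust eBayes, two-sided, Benjamini-Hochberg adjustment, threshold 0.05), after a test on simulated data. Python 3.11.15, pandas 2.3.3 and samtools 1.23.1 were used for the rest.

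The members, function groups and gene lists were chosen with earlier results of these data known. Named genes were the 5 in the rule, the 8 with the highest DIV7 coverage, the 8 with the smallest adjusted p for GSK-126 and up to 4 of each day of appearance. Others, such as Gm7697, were chosen after their values were seen. Alternatives were equal summed length (peaks ranked by p or by fold enrichment), a −log10 q of at least 2, a window of 1 kb on each side, an overlap of at least 100 bp, coverage in at least 1 library, log2(covered bp + 100), the replicate number as a block and leaving out each library.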

Additional observations from a re-analysis of the deposited data

Results flagged for a closer look

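In a joint fit over the 12 compound and DMSO libraries, a test added after the data were seen, 41 members could be tested. The effect of GSK-126 was called lower than that of GSK-J4 at 4 of them (limma interaction, adjusted p under 0.05). These are 2 pairs of genes with the same peaks in their windows. Over all promoters 108 of 3026 (3.57%) were lower in this test and 0 higher. The difference between the effects, GSK-126 minus GSK-J4, was −18.3 points for Syngr2 and, on the same window, −18.3 points for Gm20708 (adjusted p = 0.0404, limma). It was −10.7 points for Palmd and −10.7 points for 4930455H04Rik (adjusted p = 0.0224, limma). At the Syngr2 window coverage was 0% in all 3 GSK-126 libraries and 11.2, 18.3 and 10.2% with DMSO, and it was 0, 7.95 and 11% with GSK-J4 and 3.73, 0 and 0% with DMSO. At the Palmd window it was 0% in all 3 GSK-126 libraries and 7.75, 9.25 and 9.15% with DMSO, and it was 5.37, 3.43 and 4.30% with GSK-J4 and 1.88, 5.13 and 0% with DMSO. The median over the 41 members was −9.12 points, against −3.94 points over all 3026. The joint fit reused the GSK-126 and DMSO values whose own fit is given above only as a description. At both windows the DMSO libraries of the GSK-126 experiment also lay above those of the GSK-J4 experiment. The calls and the median are therefore descriptions, and no support for a difference between the compounds.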

How the results depend on the processing

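The rule found 1 promoter, not among the 45, with a −log10 q of at least 2, 106 at equal summed length (29 of the 45 among them), and 45 to 90 when any DIV1 or DIV7 library was left out (90 without DIV7 replicate 1, 85 without DIV7 replicate 2, 75 without DIV1 replicate 2). Members with a DIV3 peak numbered 25 by majority, 8 in all 3 libraries, 4 at equal summed length, 0 with a −log10 q of at least 2, and 8 to 22 without a DIV3 library. The DIV5 figure of 38 became 22 and 1 under the last 2 peak settings, and 30 to 37 without a DIV5 library. The 24 members called lower with GSK-126 became 3 at equal summed length, 6 when it was ranked by fold enrichment, 0 with a −log10 q of at least 2, and 4 to 20 without a library. Without a DMSO library fewer members could be tested; otherwise the cause was not tested. With the replicate block 23 were called. Deviations of same-numbered GSK-126 and DMSO libraries correlated at 0.0765, 0.0254 and 0.124, and those of differently numbered ones at −0.101 to 0.0332. Such weak correlations cannot decide whether the numbers pair the samples, and the main fit left pairing out. No called member changed direction in any setting run. The coverage filter was met mostly through the DMSO libraries and left little room for another direction, so this is no support. No member was called for GSK-J4 or for DIV5 against DIV3 under any setting.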
